A study of Arabidopsis thaliana with 12 samples.

Results

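The comparison described here is that of the ethylene-insensitive mutant ein2 with the wild type Col-0 of Arabidopsis thaliana at 14 days, measured on 4 of the 12 ATH1 arrays of the series. The members were chosen by their labels: the 2 arrays labelled ein2 at 14 days and the 2 labelled Col-0 at 14 days, all from plants on 1% sucrose. The design text gives the allele as ein2-1, the wild type as Col, and the plants as grown on agar plates from cold-treated seeds; neither it nor the labels say which organs were harvested or how many plants entered an RNA sample. The other 8 arrays, all at 12 days, hold Col-0, Col-7, aba2 (also labelled gin1-3) and etr1 (allele etr1-1), with 2 arrays each. Of these groups etr1 and its Col-0 are compared below. All 8 arrays also enter the fits to all 12 arrays, and their signals are shown for some genes. The series as a whole concerns crosstalk between the hormones abscisic acid (ABA) and ethylene.

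Ethylene is a gaseous plant hormone that is bound by receptors such as ETR1 in the endoplasmic reticulum membrane. Binding relieves a block on EIN2, a membrane protein whose cleaved end carries the signal onward, and the transcription factor EIN3 and its relatives then change transcription. Plants without EIN2 function are among the most strongly ethylene-insensitive mutants known, and in seedlings and young plants they are known for reduced ethylene effects on organ growth, leaf senescence, defence and sugar responses.

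These 4 arrays were fitted alone because their replicates are the closest of the series, so that closeness is a reason for the choice and not a result. Standard errors and p-values of this fit rest on that chosen small spread, so they may be too small. At 14 days the log2 differences between the replicate arrays had a standard deviation of 0.249 in Col-0 and 0.268 in ein2, and at 12 days of 0.281 in etr1 and 0.528 in Col-0. A gap of over 2-fold between replicates was seen at 51 of 22746 probe sets in Col-0 and at 52 in ein2. Whether the replicates are separate cultures is not given, although the design mentions independent sets, so p-values measure only the spread between these samples, which may be technical. EIN2 itself could not be followed, because 0 probe sets were paired with it. Few organ markers could be paired either: 1 of 8 leaf markers, 1 of 9 root markers and 0 of the 5 flower and 0 of the 5 seed markers. The leaf marker RCA (Rubisco activase) had signals of 22588 and 20343 in Col-0 and 20812 and 20364 in ein2. The root marker EXPA7, an expansin of root hairs, had 131 and 138 in Col-0 and 127 and 66.5 in ein2, so 1 ein2 array had about the wild-type signal and the other was lower.

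In ein2, 96 of 22746 probe sets passed the test (0.422%), of which 41 rose (0.18%) and 55 fell (0.242%). The largest changes among named genes were the falls of AT5G50335, AT3G16670 and AT5G57760 and the rises of AT5G62130, the lectin gene JAL23 and AT1G19960. The test was limma on log2(signal + 50) of these 4 arrays, two-sided, with Benjamini-Hochberg adjustment over all probe sets and a threshold of 0.05. Changes are on that scale with their standard error from the fit and n = 2 arrays per group. The changes ran down to 0.92 for rises and -0.89 for falls, and no smaller change passed in this fit over all 22746 probe sets. Of the 96, 91 changed at least 2-fold (0.4% of all probe sets). On all 96 probe sets the ein2 arrays and the Col-0 arrays did not overlap, but this was also true of 20.5% of all probe sets as higher and 20% as lower. At an unadjusted p under 0.05 there were 2453 probe sets, where 1137 would be expected with no effect. An exact permutation test of 2 arrays against 2 cannot give a p below 0.333. Without the dimmest 40% of probe sets 375 passed, some with smaller changes. In a fit to all 12 arrays 51 passed, and only 42 of the 96 were among them. With the replicate number as a block 49 passed. Leaving out 1 of the 4 arrays lowered the count further, as given at the end.

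**Figure D1:**
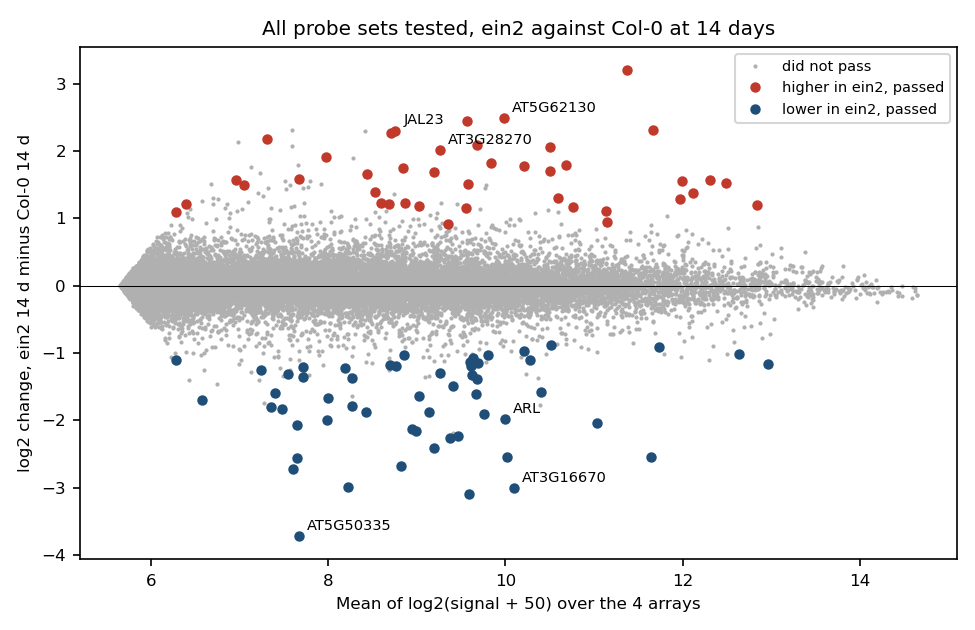
Each point is 1 probe set, with its mean log2(signal + 50) over the 4 arrays on the x axis and the log2 change of ein2 against Col-0 at 14 days on the y axis. Coloured points are the 41 probe sets that rose and the 55 that fell past an adjusted p of 0.05, and grey points did not pass; AT5G50335 is lowest at -3.72.

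Of the 96 probe sets, 43 were paired with 1 gene of the reference table, 20 that rose and 23 that fell, and 11 of these carry a gene symbol. The other 53 had no single gene name here. Among those, probe set 256766_at rose most of all, from signals of 679 and 990 in Col-0 to 7529 and 8426 in ein2 (3.20 ± 0.185, adjusted p = 0.00518). Probe set 246935_at fell from 2203 and 2191 to 246 and 184 (-3.09 ± 0.142, adjusted p = 0.00446). Whether a lower signal reflects fewer cells of a kind or less RNA per cell cannot be told apart in RNA from whole samples.

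The genes that fell are described first. AT5G50335 had signals of 621 and 761 in Col-0 and of 0.930 and 11.7 in ein2 (-3.72 ± 0.177, adjusted p = 0.00446). AT5G57760 had a similar pattern, with 466 and 438 in Col-0 and 28.2 and 23.0 in ein2 (-2.73 ± 0.141, adjusted p = 0.00446). For both genes the ein2 signal lies under the offset of 50, which therefore sets much of the size of the change: with offsets of 10 and 150 it ran from -5.50 to -2.42 and from -3.70 to -1.78. AT3G16670 was bright in the wild type, at 3087 and 3004, and fell 8.05-fold to 411 and 271 (-3.01 ± 0.182, adjusted p = 0.00586). AT5G62280 fell from 1449 and 1350.0 to 279 and 229 (-2.26 ± 0.130, adjusted p = 0.00518). In each of these 4 genes both ein2 arrays lay far below both Col-0 arrays. The rule that chose them required arrays that did not overlap.

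ARL (ARGOS-like), a gene that promotes organ growth through cell expansion, had signals of 1749 and 2230.1 in Col-0 and 443 and 481 in ein2. It fell 3.96-fold (-1.99 ± 0.144, adjusted p = 0.0104). CYP71B22, a cytochrome P450 monooxygenase, fell 3.98-fold, from 437 and 476 to 68.8 and 86.4 (-1.99 ± 0.147, adjusted p = 0.0107). The 26 cytochrome P450 genes that could be measured otherwise showed no common direction: 13 were higher and 13 lower, with a median of -0.01, and CYP71B22 alone passed. The next largest changes were CYP71B24 at -0.81 ± 0.155, CYP78A9 at 0.75 ± 0.217 and CYP71B23 at -0.53 ± 0.149. SIS (Salt Induced Serine rich), named for its induction by salt, fell from 1267 and 1483 to 359 and 484 (-1.60 ± 0.165, adjusted p = 0.0287). SWEET10, a sugar transporter, had 267 and 218 in Col-0 and 35.3 and 59.9 in ein2 (-1.59 ± 0.188, adjusted p = 0.0448, or -2.16 and -0.99 with offsets of 10 and 150). FDH, the formate dehydrogenase that oxidises formate to carbon dioxide, was bright and its replicates were tight, at 4588 and 4657 in Col-0 and 2468 and 2387 in ein2. It fell 1.89-fold (-0.92 ± 0.102, adjusted p = 0.0356), close to the smallest fall that passed.

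AT2G39980 fell from 637 and 586 to 139 and 120 (-1.88 ± 0.134, adjusted p = 0.00947). AT3G12710 (-1.64 ± 0.195), AT3G54040 (-1.48 ± 0.179) and AT2G36690 (-1.35 ± 0.161) also fell, with adjusted p between 0.0448 and 0.0473. The other 10 named probe sets that fell lay between -1.33 and -0.96. Over all 55 falls the median of the group mean signals was 1032 in Col-0 and 245 in ein2, and in 10 of the 55 the ein2 mean was under 50.

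**Figure D2:**
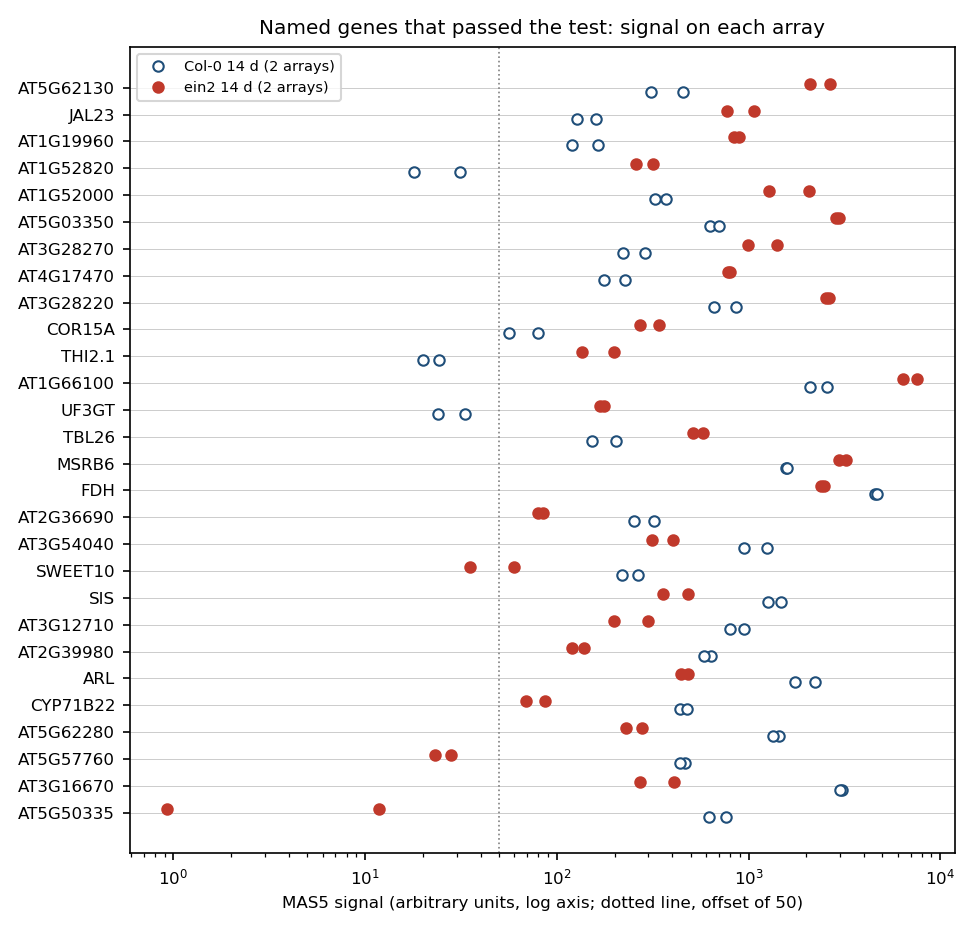
Signal on each array (x axis, arbitrary units, log axis) of the 28 named genes that passed, ordered by change; open circles are the 2 Col-0 arrays and filled circles the 2 ein2 arrays at 14 days. The genes were chosen with arrays that do not overlap, so both ein2 circles lie to 1 side of both Col-0 circles. AT5G50335 has the lowest ein2 signals, 0.930 and 11.7.

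Among the genes that rose, JAL23 (jacalin-related lectin 23), of a family of carbohydrate-binding proteins, had signals of 128 and 161 in Col-0 and 1066 and 773 in ein2, a rise of 4.95-fold (2.31 ± 0.187, adjusted p = 0.0119). The other 3 measured jacalin-related lectins did not pass. JAL22 had 4150 and 3788 in Col-0 and 6512 and 5930 in ein2 (0.64 ± 0.118, adjusted p = 0.128), and JAL33 and JAL34 were at 0.27 and 0.28. All 4 measured members were thus higher in both ein2 arrays, as were 20.5% of all probe sets. The amounts differed widely. In etr1 against Col-0 at 12 days JAL23 was also higher (1.55), but JAL22 (-2.24), JAL33 (-1.16) and JAL34 (-0.76) were lower.

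AT5G62130 rose 5.61-fold, from 457 and 310 to 2083 and 2646 (2.49 ± 0.201, adjusted p = 0.0119). AT1G19960 rose from 120.0 and 165 to 844 and 894 (2.27 ± 0.153, adjusted p = 0.00826). Its 12-day wild-type signals, given below, were higher than those of Col-0 at 14 days. AT1G52820 was dim in the wild type, at 18.0 and 31.1, and had 319 and 260 in ein2 (2.19 ± 0.173, adjusted p = 0.0119, or 3.13 and 1.33 with offsets of 10 and 150). AT5G03350 had close replicates, with 629 and 699 in Col-0 and 2961 and 2864 in ein2 (2.05 ± 0.107, adjusted p = 0.00446). AT1G52000 (2.08 ± 0.226), AT3G28270 (2.02 ± 0.200), AT4G17470 (1.75 ± 0.142), AT3G28220 (1.71 ± 0.144) and AT1G66100 (1.56 ± 0.151) rose as well. AT1G66100 was the brightest of these, at 2098 and 2570.5 in Col-0 and 6371 and 7579 in ein2. The other 5 named probe sets that rose lay between 1.098 and 1.53.

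Among the rises with a gene symbol, THI2.1, COR15A and UF3GT were dim in the wild type. THI2.1, an antimicrobial thionin that is induced by methyl jasmonate, had 20.1 and 24.3 in Col-0 and 198 and 136 in ein2 (1.57 ± 0.184, adjusted p = 0.0427). COR15A, a chloroplast protein made in cold and in response to ABA, had 56.2 and 79.7 in Col-0 and 271 and 340.2 in ein2 (1.59 ± 0.180, adjusted p = 0.0380). UF3GT, a glycosyltransferase of anthocyanin decoration, had 33.4 and 24.0 in Col-0 and 168 and 176 in ein2 (1.501 ± 0.146, adjusted p = 0.0236). With offsets of 10 and 150 these 3 changes ran from 0.87 to 2.44, from 1.06 to 2.03 and from 0.85 to 2.25. TBL26, of the trichome birefringence-like family that acetylates cell wall polysaccharides, rose from 153 and 204 to 513 and 581 (1.39 ± 0.160, adjusted p = 0.0407). MSRB6, a methionine sulfoxide reductase that repairs oxidised methionine, rose 1.93-fold from 1567 and 1582 to 2982 and 3208 (0.95 ± 0.103, adjusted p = 0.0327).

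The lists of pathway genes were read against the background of 0.422% of probe sets called and a median change of 0.00 over all probe sets. Arrays that did not overlap were seen at 20.5% of all probe sets as higher and at 20% as lower. Only a few members of each could be paired with a probe set, so the lists describe those members and not the pathways. Of the 19 genes of ethylene perception and signalling, 4 were measured and none passed (0 of 4; limma). EIN3, the transcription factor downstream of EIN2, had 2676 and 2234 in Col-0 and 2404 and 2219 in ein2 (-0.08 ± 0.128). RTE1, a regulator of the receptor ETR1, had 457 and 436 in Col-0 and 249 and 339 in ein2 (-0.54 ± 0.161, adjusted p = 0.313). Its homologue RTH was at -0.23 and ETP2, an F-box protein that targets EIN2 for degradation, at 0.04. The EIN3 and ETP2 arrays of both genotypes overlapped, whereas those of RTE1 and RTH did not. Of 15 ethylene synthesis genes only AT1G12010 was measured, at 0.03.

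Of 20 ethylene-responsive genes 3 were measured, and ARL fell. PDF1.2 and its near copy PDF1.2b, defensin genes that ethylene and jasmonate induce together, were dim on all 4 arrays. PDF1.2 had 15.2 and 74.6 in Col-0 and 46.0 and 18.8 in ein2 (-0.15 ± 0.330), and PDF1.2b had 29.9 and 68.9 against 31.1 and 10.0 (-0.48 ± 0.241). In both genes the arrays of the genotypes overlapped, and the PDF1.2b probe set is of a kind that can also bind related transcripts. Among all 5 measured plant defensins none passed (0 of 5; limma), and the highest was PDF1.4 with 68.7 and 61.2 in Col-0 and 146 and 215 in ein2 (0.99 ± 0.188, adjusted p = 0.134). The lowest was PDF2.5 with 296 and 389 in Col-0 and 212 and 121 in ein2 (-0.88 ± 0.241, adjusted p = 0.272), and the arrays of neither gene overlapped.

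The ABA-responsive and cold-regulated genes did not move together. Of 17 listed 4 were measured: COR15A rose, COR15B had 0.62 ± 0.185, LTI30 -0.16 ± 0.214 and COR47 -0.35 ± 0.208. COR15B, a close relative of COR15A, had 51.6 and 86.1 in Col-0 and 130 and 132 in ein2. COR47, a dehydrin, was bright and uneven in the wild type, at 5265 and 3474, and had 3576 and 3128 in ein2.

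Anthocyanin and flavonoid genes were higher in ein2 in all 3 of the 14 that were measured (median 1.501), and UF3GT passed. DFR, the dihydroflavonol reductase of anthocyanin synthesis, had 63.1 and 177 in Col-0 and 528 and 566 in ein2 (1.90 ± 0.320, adjusted p = 0.105). AT4G14090 had 11.1 and 45.2 in Col-0 and 117 and 121 in ein2 (1.15 ± 0.229, adjusted p = 0.147). In both genes the arrays did not overlap, and the wild-type replicates were far apart while the ein2 replicates were close. The 47 UDP-glycosyltransferases measured were higher in 35 and lower in 12 (median 0.14), and none passed (0 of 47; limma). The highest were UGT78D1, a flavonol rhamnosyltransferase, with 386 and 438 in Col-0 and 1229 and 838 in ein2 (1.21 ± 0.191, adjusted p = 0.0907), and UGT84A4 at 0.71 ± 0.152. UGT78D2, a flavonoid glucosyltransferase, had 0.60 ± 0.179.

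Jasmonate genes were higher in all 3 of the 14 that were measured (median 1.21). Beside THI2.1, JMT, the enzyme that makes methyl jasmonate, had 17.8 and 19.1 in Col-0 and 91.4 and 127 in ein2 (1.21 ± 0.160, adjusted p = 0.0599). OPCL1, a ligase of jasmonate synthesis, had 1212 and 866 in Col-0 and 1539 and 1344 in ein2 (0.47 ± 0.176, adjusted p = 0.426). All 3 were higher on both ein2 arrays, as were 20.5% of all probe sets. OPCL1, the brightest, had the smallest change of the 3.

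For auxin, 5 of 30 listed genes were measured and none passed (0 of 5; limma). IAGLU, which joins glucose to indole-3-acetic acid, lay just outside the threshold, with 539 and 638 in Col-0 and 245 and 190 in ein2 (-1.26 ± 0.159, adjusted p = 0.0550). The GH3 enzymes, which join amino acids to auxin, went both ways: GH3.3 had 0.66 ± 0.173, GH3.1 0.39 ± 0.121 and WES1 -0.43 ± 0.118. Their arrays did not overlap, as at 20.5% of all probe sets as higher and 20% as lower. IAA29, an auxin-induced repressor, was at 0.22. The gibberellin receptors GID1A (0.35 ± 0.134), GID1B (-0.39 ± 0.119) and GID1C (-0.33 ± 0.144) went both ways as well, and none passed (0 of 3 measured; limma).

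Xyloglucan endotransglucosylases, which cut and rejoin cell wall xyloglucan, were lower in 8 of 9 (median -0.57), and none passed (0 of 9; limma). XTH18 had 2736 and 1556 in Col-0 and 527 and 1116 in ein2 (-1.37 ± 0.389, adjusted p = 0.285), XTH16 had -1.02 ± 0.208 and XTH19 -0.64 ± 0.150. XTH26 had 47.2 and 69.3 in Col-0 and 2.31 and 1.35 in ein2 (-1.05 ± 0.143, adjusted p = 0.0637), and with offsets of 10 and 150 its change was -2.51 and -0.45. The XTH18 replicates differed most, and its change was -0.86 without the first ein2 array. In Col-0 at 12 days XTH18 had 182 and 270 and XTH26 had 2.96 and 2.76, below Col-0 at 14 days. Their changes in etr1 at 12 days were 0.19 ± 0.458 and 0.04 ± 0.123, and the median of all 9 there was -0.06. The 18 expansins, which loosen cell walls, were split into 9 higher and 9 lower, from EXPA8 at -0.56 ± 0.121 to EXLB1 at 0.69 ± 0.187. The root hair genes EXPA7 and EXPA18 had -0.36 ± 0.225 and -0.40 ± 0.183.

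Of the 20 beta-glucosidases, which release sugars and defence compounds from glucosides, 15 were higher (median 0.19). BGLU19 had 7.21 and 26.2 in Col-0 and 82.9 and 149 in ein2 (1.299 ± 0.245, adjusted p = 0.132), and BGLU28 had 1.00 ± 0.322, or 0.51 without the second Col-0 array. None passed (0 of 20; limma). WRKY transcription factors were lower in 5 of 6 (median -0.28). The lowest was WRKY53, a regulator of leaf senescence, with 683 and 689 in Col-0 and 360 and 435 in ein2 (-0.72 ± 0.129, adjusted p = 0.122). In Col-0 at 12 days WRKY53 had only 91.8 and 87.9, and its change in etr1 was -0.04 ± 0.218. The senescence-associated sugar transporter gene SAG29 had 57.5 and 161 in Col-0 and 140.3 and 192 in ein2 (0.51 ± 0.331), with overlapping arrays. APL3, a sugar-induced subunit of the starch synthesis enzyme ADP-glucose pyrophosphorylase, had 133 and 195 in Col-0 and 239 and 227 in ein2 (0.42 ± 0.181, or 0.21 without the first Col-0 array).

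Plastid-encoded genes were higher in 54 of 69 (median 0.23), where 50.3% of all probe sets were higher. None passed (0 of 69, by limma). The ribosomal protein gene rps2 had 2350.4 and 2427 in Col-0 and 4452 and 3913 in ein2 (0.79 ± 0.114, adjusted p = 0.0732), and clpP, for a protease subunit, had 5157 and 5737 in Col-0 and 11325 and 8756 in ein2 (0.87 ± 0.161, adjusted p = 0.129). In ndhH and rps15 the first ein2 array was the higher of the pair as well, at 1614 against 1047 and at 1353 against 855. Nuclear genes of the photosystems and antennae were lower in all 7 measured, but by little (median -0.10), from LHCB4.3 at -0.44 ± 0.266 to LHCB4.2 at -0.01. LHCB4.3 had 588 and 765 in Col-0 and 358 and 641 in ein2, which overlap, and its change was -0.06 without the first ein2 array. The plastid-encoded and nuclear genes for the plastid thus had medians of opposite sign, neither with a member past the threshold. In etr1 against Col-0 at 12 days both medians were negative, at -0.29 and -0.30.

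**Figure D3:**
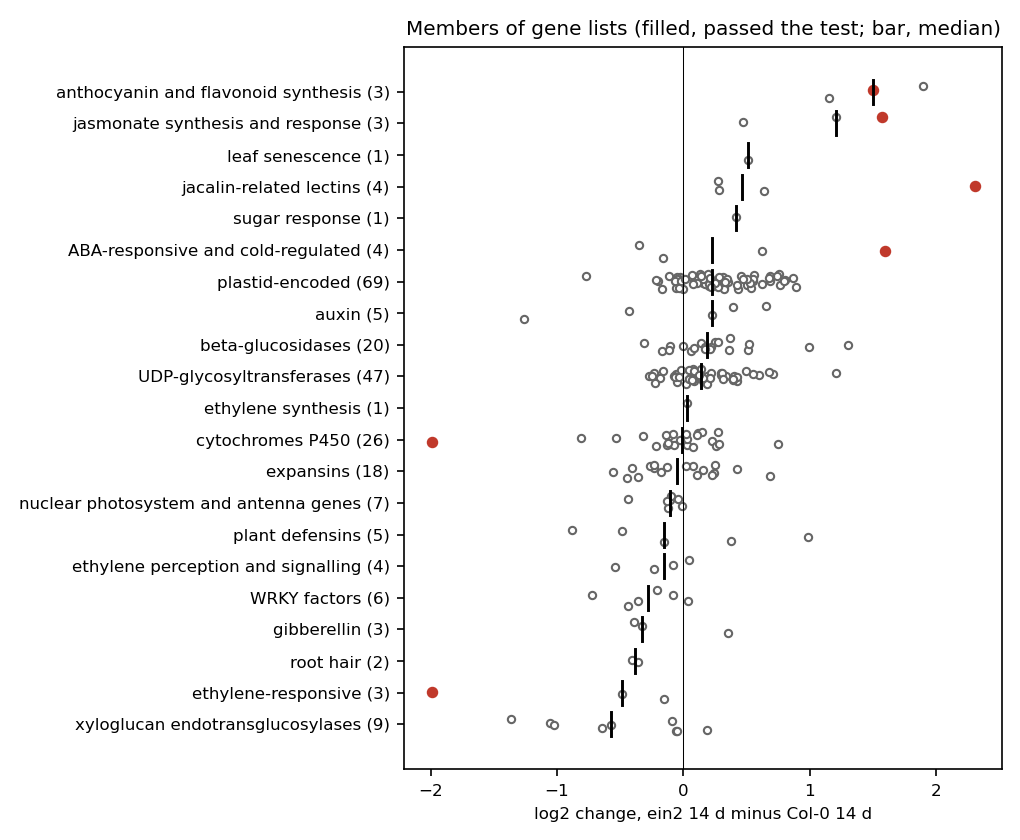
Log2 change of ein2 against Col-0 at 14 days (x axis) for each measured member of each gene list, with the number of probe sets in brackets; filled points passed an adjusted p of 0.05 and bars are medians. The medians run from -0.57 in the xyloglucan endotransglucosylases to 1.501 in the anthocyanin and flavonoid genes, and most lists hold no filled point.

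The etr1 mutant, which carries a changed ethylene receptor, was compared with its own Col-0 arrays at 12 days, so the 2 mutant effects share no array. As ein2 was measured only at 14 days and etr1 only at 12 days, mutant and age cannot be told apart in differences between these effects. Of the 55 probe sets that fell in ein2, 55 were lower in etr1 and 32 by at least 2-fold. Of the 41 that rose, 39 were higher in etr1 and 15 by at least 2-fold. Among all probe sets 56.7% had the same sign in both mutants and 0.866% were changed at least 2-fold in etr1 in the direction of ein2. The median change was -1.60 in ein2 and -1.10 in etr1 over the falls, and 1.57 and 0.59 over the rises.

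Among all probe sets 0.207% passed in etr1, and of the 96 there were 18 that also passed there in the direction of ein2. The leading falls were also low in etr1. AT3G16670 was at -2.85 ± 0.234 in etr1, AT5G57760 at -2.63 ± 0.231, AT5G62280 at -2.09 ± 0.159 and ARL at -1.55 ± 0.191. AT5G50335 was at -2.65 ± 0.231 in etr1 and AT2G39980 at -2.53 ± 0.202. Their differences from ein2 did not pass the test of the difference between the mutants (-1.06 ± 0.327 and 0.65 ± 0.286, adjusted p = 1.00 for both). Some rises were small in etr1: AT1G19960 was at 0.13 ± 0.284, AT3G28270 at 0.02 ± 0.743, AT4G17470 at 0.18 ± 0.359 and COR15A at -0.31 ± 0.465. The standard errors of these etr1 values are large, and the differences did not pass either (adjusted p from 0.592 to 1.00).

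The test of the difference between both mutant effects, in a limma fit to all 12 arrays, was passed by 2 of 22746 probe sets (0.00879%). Such a difference can come from the mutant or from the age of the plants, and which was not tested. JAL22 was 1 of them, with a difference of 2.88 ± 0.255 (ein2 minus etr1, adjusted p = 0.00895). Its signals were 3208 and 2440.2 in Col-0 and 623 and 493 in etr1 at 12 days, a fall, where ein2 at 14 days was above its wild type. The other was probe set 252764_at, with no gene name here, which fell in ein2 from 1615 and 1357 to 275 and 272 (-2.24 ± 0.126, adjusted p = 0.00517). In etr1 it had 1445 and 1302 against 1399 and 1770.1 in Col-0 (-0.19 ± 0.157), and the difference was -2.05 ± 0.223 (adjusted p = 0.0309). In that test 0 passed without either Col-0 array at 14 days, the first ein2 array or the second etr1 array (634, 814, 793 and 776 at an unadjusted p under 0.05, by limma), 1 without the first Col-0 array at 12 days or the first etr1 array, and 5 without the second Col-0 array at 12 days.

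**Figure D4:**
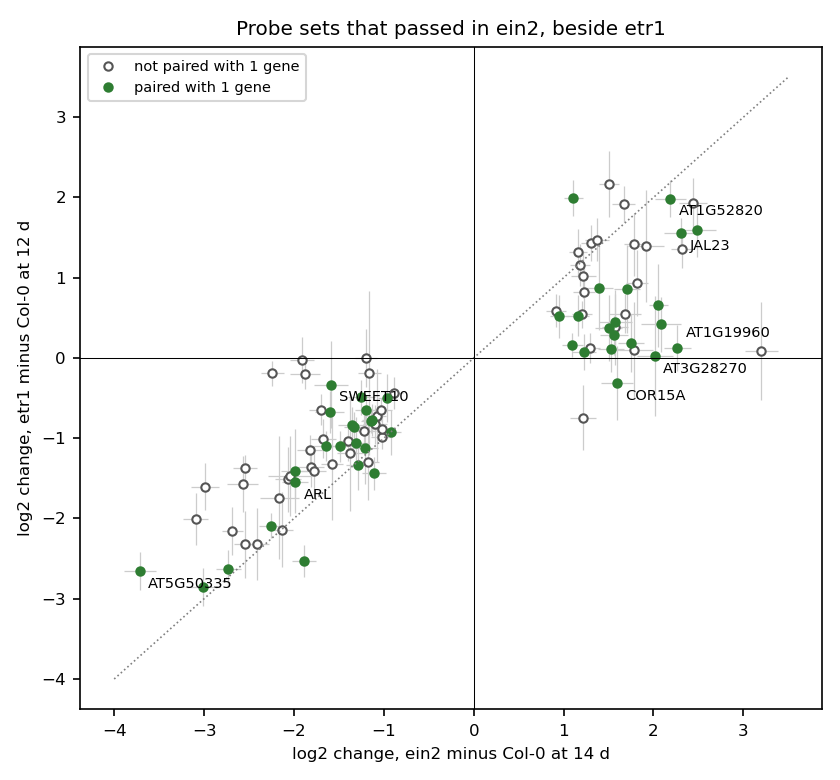
Log2 change in ein2 against Col-0 at 14 days (x axis) and in etr1 against Col-0 at 12 days (y axis) for the 96 probe sets that passed in ein2, with standard errors; the dotted line marks equal change. All 55 falls in ein2 lie below 0 in etr1, and among the rises several, such as AT1G19960 and AT3G28270, lie near 0 on the etr1 axis.

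The 12-day Col-0 arrays give a second wild-type level. Of the 41 probe sets that rose, both ein2 arrays were above both Col-0 arrays of 12 days in 36 (23.9% of all probe sets), and of the 55 that fell both were below in 47 (20.3% of all probe sets). In 19 of the 41 rises both 14-day Col-0 arrays were themselves below both 12-day Col-0 arrays (20.6% of all probe sets), and in 28 of the 55 falls they were above them (23.3%). The rises and falls were chosen on these same ein2 and 14-day Col-0 arrays, which favours extreme values on them. Shares above those of all probe sets are therefore partly set by the choice, and how far was not tested. COR15A was not among the 36 rises, with 1129 and 322 in Col-0 at 12 days. Its ein2 signals of 271 and 340.2 overlapped the younger wild type. UF3GT had 174 and 33.2 in Col-0 at 12 days, which overlaps the ein2 values. SIS was the 1 probe set among the falls whose ein2 arrays were above the younger wild type, which had 277 and 320.5. SWEET10 had 33.6 and 112 in Col-0 at 12 days, which overlaps ein2. For AT1G19960 the 12-day signals were 758 and 476 in Col-0 and 1473 and 814 in the wild type Col-7. Its ein2 signals of 844 and 894 were above the former and within the range of the latter. By contrast ARL (1032 and 1405) and AT3G16670 (2448 and 1744) in the 12-day wild type were well above ein2, and JAL23 (301 and 234) well below it. Age, and the wider spread between the 12-day Col-0 arrays, cannot be told apart from genotype in these values.

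**Figure D5:**
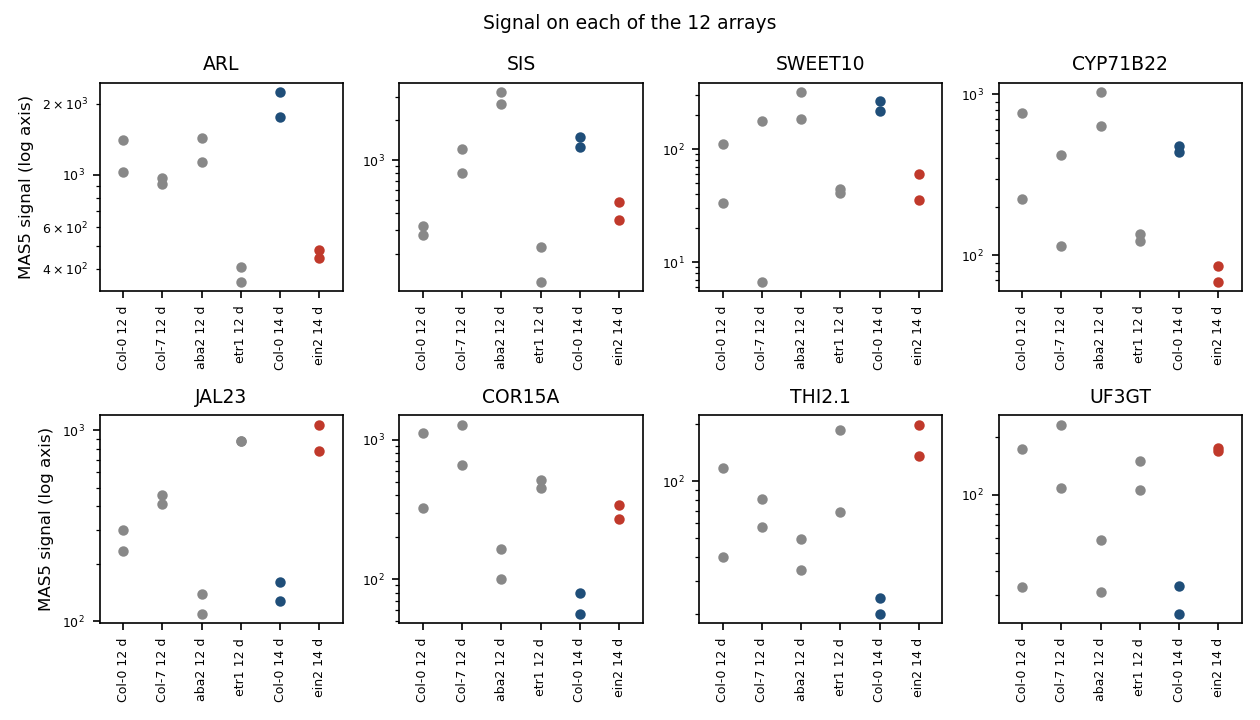
Signal (y axis, log axis) on each of the 12 arrays for 8 genes that passed in ein2, by group; red points are ein2 and blue points Col-0 at 14 days, grey points the 12-day groups. The ARL signals of etr1 and ein2, 354 to 481, lie below those of the other 4 groups, whereas the COR15A signals of ein2, 271 and 340.2, lie within the range of the 12-day groups.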

How the data were processed

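The authors deposited 1 table of MAS5 signal intensity for 22810 probe sets on 12 ATH1 arrays, made with MAS5 per the submitters' processing notes. The values are linear, and the mean signal after trimming 2% at each end was 496 to 497 on every array, so the arrays came scaled. The 64 control probe sets were left out, an offset of 50 was added and log2 was taken, with no filter on dim probe sets. Detection calls were not used here. Names came from GEO's platform annotation, updated through the RefSeq table of TAIR10.1: 13513 of 22746 were paired with 1 gene, 503 with several and 8730 were unnamed here; 13436 were found in RefSeq. 

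Genotypes were tested in R 4.3.3 with limma 3.58.1 (eBayes with trend). For ein2 the 4 arrays at 14 days were fitted alone (2 residual and 3.87 prior degrees of freedom). For etr1, and for the difference between ein2 and etr1, all 12 arrays were fitted. An offset makes fold changes of dim probe sets smaller than the ratio of signals. The procedure was run on simulated arrays with known changes, with noise set below the pooled spread of the 12 arrays. That run gives no error rate for these data.

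Named genes are the 12 largest rises and 12 largest falls that passed with arrays that did not overlap, up to 8 more per direction with a symbol, and up to 4 members per list; probe sets printed by ID, LHCB4.2, IAA29 and RCA fall outside this rule, and the probe sets were picked with their values known. The members and lists were chosen with earlier results of these data known. Plastid-encoded genes were found by their chromosome in the RefSeq table, and 2 peptide deformylases were removed from the defensins. The lists of ABA synthesis and signalling, pathogenesis-related, ERF, mitochondria-encoded and ribosomal protein genes had 0 members paired. The tests measure 4 arrays, whose number limits the precision. Alternatives were other offsets, scalings and filters, no trend, a replicate block, all 12 arrays and leaving out each array.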

Additional observations from a re-analysis of the deposited data

How the results depend on the processing

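The count of 96 was within 1.5 times under offsets of 10 and 150, quantile normalization, median centring, no trend, and a 2-fold rule (85 to 140). It was 375 with the dimmest 40% left out, a table of 13648 probe sets, and 89 of the 96 were among them. It was 51 in the fit to all 12 arrays, with only 42 of the 96 among them. It was 49 with the replicate number as a block. The labels do not say whether the replicate numbers pair samples. Same-numbered arrays of both groups did not deviate together (r = -0.048 across probe sets). With a single replicate difference per group this cannot show whether they are paired. Leaving out single arrays gave 0 to 13 (0 without either Col-0 array or the second ein2 array, where 1575, 2124 and 2789 passed at an unadjusted p under 0.05 by limma), and all 96 had the same sign. The count of 2 differences between ein2 and etr1 was 1 with an offset of 150 and 1 with the replicate block, and 0 to 5 without single arrays. The 94 probe sets of 1 sign in both mutants stayed between 78 and 94. Of the 28 named genes that passed, 28 passed under an offset of 10, quantile normalization and median centring, 25 with an offset of 150, 24 without trend, 19 with the replicate block and 16 in the fit to all arrays; none turned sign. With the dimmest 40% left out 9 more named list members passed, among them IAGLU, DFR, UGT78D1, WRKY53, XTH16, JAL22 and clpP. Of the 90 genes named by the rule, signs turned for 6 that did not pass, whose changes without single arrays ran from -0.209 to 0.047 (EIN3), -0.013 to 0.098 (ETP2), -0.077 to 0.138 (AT1G12010), -0.617 to 0.317 (PDF1.2, also 0.091), -0.488 to 0.162 (LTI30) and -0.883 to 0.0085 (WRKY22). Outside that rule IAA29 (-0.014 to 0.460), RCA (-0.134 to 0.017) and LHCB4.2 (-0.058 to 0.029) turned too. The causes of these shifts were not tested. With 2 arrays per group, no change smaller than 0.89 on the log2 scale passed in the fit over all probe sets.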
